A study of Mus musculus with 8 samples.

Results

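DL-Foxp2 and DL-Etv1 are deep-layer subtypes of excitatory neurons in the mouse prefrontal cortex (PFC), each named for a marker gene by the authors, who clustered the excitatory neurons of this tissue into 7 subtypes. The cells were taken from the deposited annotation: 743 cells carried the name DL-Foxp2 and 383 the name DL-Etv1, together 1126 of 2775 excitatory neurons, of 8997 annotated PFC cells and of 23687 annotated cells in the series. The study profiled the PFC and striatum of mice lacking 1 functional copy of *Setd1a*, which encodes a histone H3K4 methyltransferase, by droplet single-cell RNA sequencing. The PFC gave 4 libraries, 2 WT and 2 *Setd1a*+/-, each from the pooled tissue of 2 male C57BL/6N mice, and each biological replicate held 1 library per genotype. The mutant allele was made with CRISPR-Cas9 and carries a frameshift ahead of the part coding for the SET domain and the WT mice were littermates. The labels give an age of 8-10 weeks; the methods name another age for the profiled animals. Since every library held both subtypes from the same mice, DL-Foxp2 was compared with DL-Etv1 within each library, and the question was how these neurons differ from each other, not what the mutation does.

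Excitatory neurons of the deep cortical layers are grouped by where their axons go. Corticothalamic neurons of layer 6 send axons to the thalamus and are known for the transcription factors Foxp2 and Tle4, whereas intratelencephalic neurons connect cortical areas with each other and with the striatum and are known for Rorb and the synaptic zinc transporter Slc30a3. Extratelencephalic neurons of layer 5 project to the brainstem and spinal cord and are known for Bcl11b, and Etv1 (Er81) is a classical marker of layer 5.

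The comparison rests on unique molecular identifiers (UMIs), the deduplicated counts of RNA molecules, summed over the cells of a subtype in each library and given as counts per 1000000 UMIs of that sum (CPM). In all that follows, 4 values in a row are in the order WT replicate 1, WT replicate 2, *Setd1a*+/- replicate 1 and *Setd1a*+/- replicate 2, means are ± SD over these 4 libraries, and log2 fold changes (log2 FC, DL-Foxp2 minus DL-Etv1) are ± SE. DL-Foxp2 gave 121, 351, 202 and 69 cells and DL-Etv1 gave 51, 142, 93 and 97 cells. The sums held between 389415 and 1907412 UMIs, with the fewest in DL-Foxp2 of *Setd1a*+/- replicate 2. *Setd1a* itself was at 12.6, 8.91, 6.35 and 15.4 CPM in DL-Foxp2 and at 6.75, 15.0, 7.73 and 13.3 CPM in DL-Etv1, on 44 and 47 UMIs in all. It did not differ between the subtypes (log2 FC -0.11 ± 0.34, FDR 0.86), and at this depth its level does not check the genotype of a library. No barcode was shared among the 1126 cells of different libraries except 2 between WT replicate 2 and *Setd1a*+/- replicate 1. The replicates stood apart: among 10995 genes with 200 or more UMIs over all annotated PFC cells, 67 fell short of the replicate 2 libraries by 4-fold or more in the replicate 1 libraries and 17 exceeded them by as much. Of these genes, 76 were tested between the subtypes and 4 were called. Over all tested genes 6.99% were called higher in DL-Foxp2 and 8.88% in DL-Etv1. Within a library this batch is the same for both subtypes.

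DL-Etv1 cells were deeper than DL-Foxp2 cells in every library. The median DL-Foxp2 cell had 9223, 5332, 6312 and 5575 UMIs, and the median DL-Etv1 cell had 14540, 9646.5, 9570 and 10203, which is 1.52 to 1.83 times as many. The medians of the subtypes did not overlap, though that of DL-Foxp2 in WT replicate 1 came close to the lowest of DL-Etv1. With 4 pairs the exact permutation test could not go below p = 0.125, the value found (two-sided). The median number of detected genes was 3395, 2399, 2642.5 and 2373 in DL-Foxp2 and 4453, 3536.5, 3507 and 3598 in DL-Etv1. After every cell was thinned to 2000 UMIs most of this gap was gone, with 1241, 1196, 1222 and 1205.5 genes in DL-Foxp2 and 1265, 1231.5, 1245 and 1224.5 in DL-Etv1. A larger RNA content and a better capture of DL-Etv1 cells cannot be told apart. Markers of other cell types were low in both subtypes. Only 1 interneuron, 4 oligodendrocyte and 1 astrocyte markers had enough counts to test, and none of these was called. No progenitor, microglia or vascular marker could be tested. The summed level of 6 oligodendrocyte markers ranged from 82.2 to 157 CPM in DL-Foxp2 and from 118 to 174 CPM in DL-Etv1, against at least 60768 CPM in oligodendrocytes, and the 7 interneuron markers ranged from 13.6 to 49.3 CPM and from 6.75 to 55.7 CPM, against at least 22935 CPM in interneurons. The defining glutamatergic gene *Slc17a7* was present in both, with 393 CPM in DL-Foxp2 and 445 CPM in DL-Etv1. Of the 5 excitatory markers 1 was called, *Nrn1*, higher in DL-Etv1 (-2.62). The astrocyte gene *Aqp4* had no UMI in DL-Foxp2 and 2 in DL-Etv1. Leaving out every cell with at least 3 UMIs of other types' markers kept 89, 281, 166 and 60 DL-Foxp2 cells and 23, 79, 49 and 58 DL-Etv1 cells, a larger loss in the deeper subtype. Then 473 and 540 genes were called higher in DL-Foxp2 and DL-Etv1. The part of doublets in the differences was not tested.

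**Figure D1:**
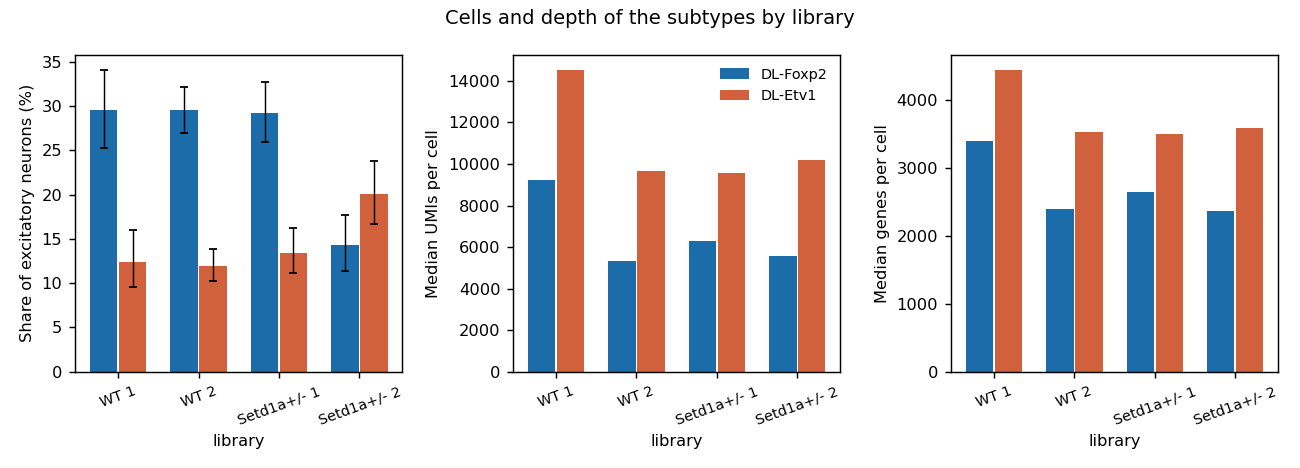
Share of excitatory neurons in percent (with 95% Wilson intervals), median UMIs per cell and median detected genes per cell (bars) for DL-Foxp2 and DL-Etv1 in each of the 4 PFC libraries. DL-Etv1 cells had 1.52 to 1.83 times the UMIs of DL-Foxp2 cells in every library, and DL-Foxp2 was 14.3% of excitatory neurons in Setd1a+/- replicate 2 against 29.2 to 29.5% in the other libraries.

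The promoter sequences of a few genes that the comparison turns on are given for reference, 250 bases up to the transcription start, from RefSeq windows on GRCm38.p6. *Sema5a* and *Rprm* stand for the genes higher in DL-Foxp2, and *Etv1*, *Cck* and *Rorb* for those higher in DL-Etv1. The windows are chr15:32244563-32244812 on the plus strand, chr2:54085553-54085802 on the minus strand, chr12:38779832-38780081 on the plus strand, chr9:121495695-121495944 on the minus strand and chr19:19111197-19111446 on the minus strand. In the GENCODE annotation no exon of a gene lies in the windows of *Rprm*, *Cck* and *Rorb*, that of *Sema5a* takes in part of the first exon of the noncoding RNA *Snhg18* on the other strand, and that of *Etv1* lies in the first intron of a longer *Etv1* transcript. Capitals mark the only matches to a searched motif in these 5 windows: the nuclear receptor site AGGTCA starting 139 bases before the start of *Sema5a*, and the forkhead core TGTTTAC on the opposite strand, 35 bases before the start of *Cck*. Each sequence is read 5′ to 3′ on the strand of its gene.
Sema5a: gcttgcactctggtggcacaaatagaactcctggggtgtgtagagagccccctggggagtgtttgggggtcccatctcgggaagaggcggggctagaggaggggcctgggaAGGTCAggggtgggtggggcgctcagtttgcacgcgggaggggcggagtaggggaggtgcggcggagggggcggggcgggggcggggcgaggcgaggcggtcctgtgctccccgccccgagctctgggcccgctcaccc
Rprm: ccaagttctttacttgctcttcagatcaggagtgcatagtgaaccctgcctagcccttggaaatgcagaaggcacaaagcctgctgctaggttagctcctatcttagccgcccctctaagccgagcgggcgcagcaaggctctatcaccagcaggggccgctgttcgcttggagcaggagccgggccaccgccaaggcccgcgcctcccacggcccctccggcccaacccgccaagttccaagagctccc
Etv1: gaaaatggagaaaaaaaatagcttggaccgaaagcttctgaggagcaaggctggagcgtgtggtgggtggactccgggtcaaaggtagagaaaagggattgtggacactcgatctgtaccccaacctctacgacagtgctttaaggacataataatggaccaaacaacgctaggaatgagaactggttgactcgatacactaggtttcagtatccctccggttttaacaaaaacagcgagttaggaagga
Cck: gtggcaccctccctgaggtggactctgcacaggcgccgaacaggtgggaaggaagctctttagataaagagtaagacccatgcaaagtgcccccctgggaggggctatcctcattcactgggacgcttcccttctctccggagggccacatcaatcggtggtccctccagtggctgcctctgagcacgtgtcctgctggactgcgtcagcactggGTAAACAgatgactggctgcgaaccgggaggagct
Rorb: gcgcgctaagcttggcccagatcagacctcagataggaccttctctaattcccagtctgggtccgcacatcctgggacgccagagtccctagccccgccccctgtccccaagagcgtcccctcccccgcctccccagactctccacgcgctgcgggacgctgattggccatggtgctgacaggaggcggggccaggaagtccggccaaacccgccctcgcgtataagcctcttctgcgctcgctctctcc

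The motifs searched on both strands were the forkhead core TGTTTAC, the ETS core CCGGAAG, the nuclear receptor site AGGTCA, the TATA box TATAAA and the cAMP response element TGACGTCA; none of them contains another. Foxp2 belongs to the forkhead family, Etv1 to the ETS family and Rorb to the nuclear receptors. The forkhead core was in the window of 3.54% of all 27025 genes with a window, of 2.46% of the tested genes, of 3.00% of the genes higher in DL-Foxp2 and of 2.22% of those higher in DL-Etv1. The ETS core was in the window of 7.83% of all genes, 17.1% of the tested genes, 12.0% of the genes higher in DL-Foxp2 and 5.802% of those higher in DL-Etv1. For the nuclear receptor site the shares were 15.8, 12.1, 15.0 and 13.1% in the same order, for the TATA box 14.3, 7.10, 7.62 and 9.39%, and for the cAMP response element 1.77, 3.69, 2.31 and 2.05%. Of the 24 leading genes named below, 13 had a window and 3 of these held any of the motifs: *Cck*, *Igfbp4* with a TATA box 28 bases before its start, and *Sema5a* with a nuclear receptor site 139 bases before it. A match describes the letters of a window and is no evidence of binding.

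Of 8661 genes with enough counts to test, 605 were called higher in DL-Foxp2 (6.99%) and 769 higher in DL-Etv1 (8.88%), at an FDR under 0.05 and a fold change above 1.5 in edgeR's quasi-likelihood test with the library as a block. The direction was the same in every library for 1284 of the 1374 called genes, and for 1023 of them the 4 libraries of 1 subtype did not overlap with the 4 of the other. Without overlap were 7.14% (higher in DL-Foxp2) and 10.1% (higher in DL-Etv1) of all tested genes. The median called gene was 1.88-fold higher in DL-Foxp2 or 2.14-fold higher in DL-Etv1, and 96 and 176 genes differed by more than 4-fold in these directions. Because the authors formed the subtypes from these same cells, an FDR is no independent test that the clusters differ. Nor does a low FDR show that a difference was even over the libraries. The hemoglobin gene *Hbb-bs* had a log2 FC of 2.05 (FDR 4.1e-12). It was at 639 CPM in DL-Foxp2 of *Setd1a*+/- replicate 1 and between 13.6 and 51.3 CPM in all other sums. In an alternative, each cell's UMIs were split at random into 2 parts of equal expected size. The subtype was assigned again from 1 part, and the other was tested. The assignment was trained on the authors' labels in the other libraries, which were made from all UMIs. Agreement was therefore favored in advance, and the split does not make the test independent. The same name returned for 98.5% of DL-Foxp2 and 94.0% of DL-Etv1 cells, with the lowest share, 83.5%, in DL-Etv1 of *Setd1a*+/- replicate 2. Of the 969 called genes that could still be tested on split UMIs, 770 were called again and none the other way. The sources do not say whether the counting used strand, so genes that overlap on opposite strands cannot be told apart. Many of the genes named here have such a partner, among them *Sla* (*Tg*), *Syt6* (*Atg4a-ps*), *Lsp1* (*Prr33*), *Sema5a* (*4930465K09Rik*), *Slc30a3* (*Dnajc5g*), *Kcnab1* (*A330015K06Rik* and *A730090N16Rik*), *Rmst* (*Gm26700*), *Fam19a1* (*1700123L14Rik*), *S100b* (*Dip2a*), *Junb* (*Prdx2*), *Grin1* (*Grin1os*), *Lypd1* (*Gpr39*), *Il1rapl2* (*Tex13a*), *Cacna2d3* (*Lrtm1*), *Necab3* (*Actl10*) and *Nnat* (*Blcap*).

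**Figure D2:**
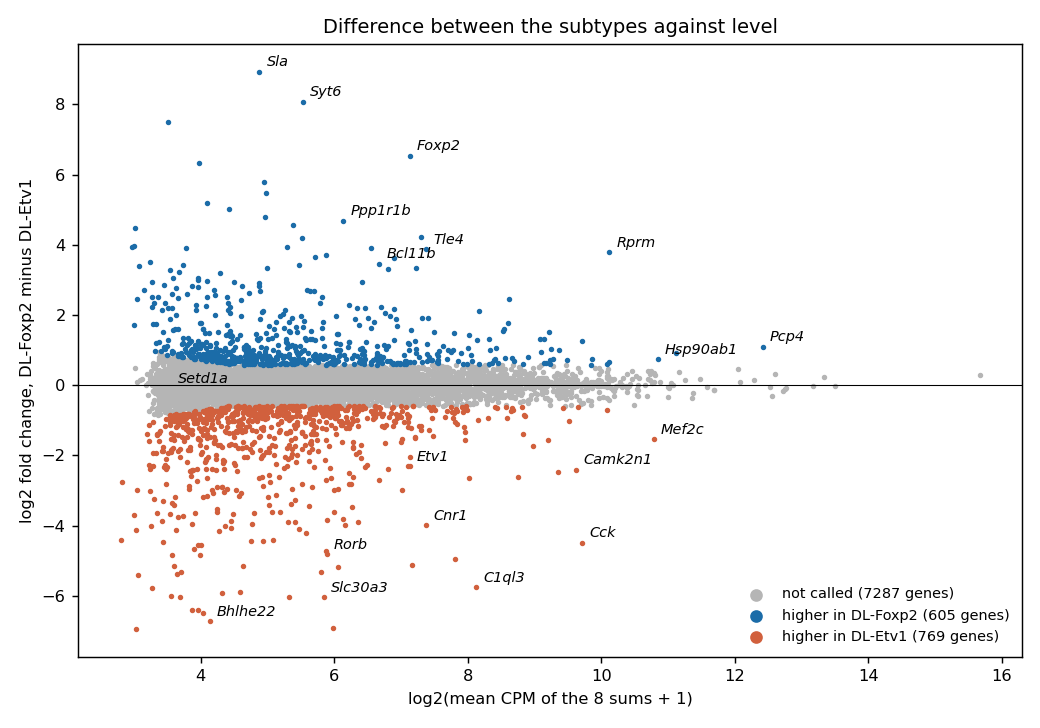
Log2 fold change (DL-Foxp2 minus DL-Etv1) of the 8661 tested genes against the log2 of their mean CPM over the 8 sums plus 1; blue points were called higher in DL-Foxp2 (605), orange points higher in DL-Etv1 (769), grey points were not called. The named genes reach the edges of the cloud on both sides; the values of Sla and Syt6, with 0 and 1 UMIs in DL-Etv1, depend on the fit and are no bound.

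The layer 6 corticothalamic genes were higher in DL-Foxp2 almost without exception. Of the 16 genes of this list, 15 were tested. Of these, 14 were called higher in DL-Foxp2 and none in DL-Etv1, with a median log2 FC of 3.32. Over all tested genes 6.99% were called higher in DL-Foxp2 and 8.88% in DL-Etv1, and the median was 0.014. The list holds *Foxp2*, which named the subtype, and was chosen with earlier results of these data known. *Sla* and *Syt6* had enough counts only through DL-Foxp2. The count was thus favored in advance and is a description, not a test. *Foxp2* (ENSMUSG00000029563, chr6:14901349-15441977 (plus strand), GRCm38) encodes a forkhead transcription factor and named the subtype. It was at 246, 257, 251 and 347 CPM in DL-Foxp2 and at 1.35, 0.714, 7.73 and 2.85 CPM in DL-Etv1. Every DL-Foxp2 value lay above 200 and every DL-Etv1 value below 10, a 92.7-fold difference (log2 FC 6.53 ± 0.21, FDR 1.2e-50), which on the log2 scale became 7.43 without *Setd1a*+/- replicate 1 and 4.78 with subtypes assigned again on split UMIs. *Rprm*, whose product reprimo was described as a cell cycle inhibitor, was at 2061, 1961, 2408 and 1836 CPM in DL-Foxp2 and at 139, 151, 209 and 113 CPM in DL-Etv1 (log2 FC 3.80 ± 0.08, FDR 2.7e-66). It was thus present in both subtypes, 13.9-fold more in DL-Foxp2. *Tle4*, a transcriptional corepressor of layer 6 neurons, was at 376, 352, 235 and 277 against 18.9, 25.0, 13.3 and 27.6 CPM (log2 FC 3.87 ± 0.14, FDR 7.5e-47).

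Some of these genes were close to absent from DL-Etv1. *Syt6*, a member of the synaptotagmin family, was at 72.9, 112, 46.1 and 128 CPM in DL-Foxp2, and a single UMI was counted over the 383 DL-Etv1 cells; the ratio of the pooled levels was 355 (95% counting interval 63.3 to 14053). *Sla*, which encodes the Src-like adaptor protein, was at 62.2, 49.3, 66.7 and 48.8 CPM in DL-Foxp2 and had no UMI in DL-Etv1, so that it was at least 77.8-fold higher (3 UMIs over the group as the floor). Over the alternative fits the log2 FC ran from 4.73 to 9.99 for *Syt6* and from 4.54 to 9.14 for *Sla*. The zinc finger cofactor gene *Zfpm2* was at 58.3 ± 8.68 CPM in DL-Foxp2 and 1.98 ± 1.85 CPM in DL-Etv1. The nuclear factor I gene *Nfia* was at 217 ± 7.10 CPM in DL-Foxp2 and 18.1 ± 8.07 CPM in DL-Etv1 and lay between 211 and 226 CPM in the DL-Foxp2 libraries. Smaller differences in the same direction were those of the T-box factor gene *Tbr1* (log2 FC 1.12 ± 0.11, FDR 3.5e-16), of *Crym* (1.55), of the kainate receptor gene *Grik3* (1.20) and of *Fezf2* (0.90). *Sox5*, known from early corticofugal neurons, stayed under the fold cutoff (log2 FC 0.44 ± 0.15, FDR 0.018), and *Ntsr1* had too few counts to be tested. Leading genes were the called genes with the largest log2 FC among those above 50 CPM in the higher subtype and with the same direction in every library. The other leading genes of DL-Foxp2 included genes outside this list. *Ppp1r1b*, encoding the dopamine- and cAMP-regulated phosphoprotein DARPP-32, was at 132, 116, 93.7 and 193 against 8.10, 5.00, 3.31 and 4.76 CPM (log2 FC 4.69 ± 0.22, FDR 2.1e-37). *Ighm*, the constant region of the IgM heavy chain, was at 212, 229, 185 and 565 against 32.4, 12.1, 9.94 and 13.3 CPM (log2 FC 4.22 ± 0.17, FDR 5.1e-43), highest in *Setd1a*+/- replicate 2; its log2 FC was 3.31 in the replicate 1 libraries alone and 5.01 in the *Setd1a*+/- libraries alone. *Ighm* also had a UMI in 52.1% of microglia. The 6 microglia markers summed to 15.4 to 35.7 CPM in DL-Foxp2, and their part in the *Ighm* level was not tested. *Cyr61*, a secreted matricellular protein gene, was at 84.98 ± 44.0 CPM in DL-Foxp2 and 4.32 ± 2.44 CPM in DL-Etv1 and had a UMI in 71.96% of endothelial cells against 16.3% of DL-Foxp2 cells; the 5 vascular markers summed to 7.78 to 12.8 CPM in DL-Foxp2, and their part in the *Cyr61* level was not tested. The remaining leaders were *Sebox* (58.5 against 0.970 CPM), *Lsp1* (59.9 against 1.25 CPM), *Nxph3* (78.4 against 3.29 CPM), *Igfbp4* (72.1 against 4.30 CPM) and *Sema5a* (174 against 12.6 CPM). With subtypes assigned again on split UMIs, the log2 FC of *Lsp1* went from 5.48 to 2.81, that of *Igfbp4* from 3.93 to 2.77 and that of *Sema5a* from 3.92 to 3.15. After thinning to 2000 UMIs per cell *Sema5a* stood at 5.64, when only 3 of 381 DL-Etv1 cells held a UMI of it.

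**Figure D3:**
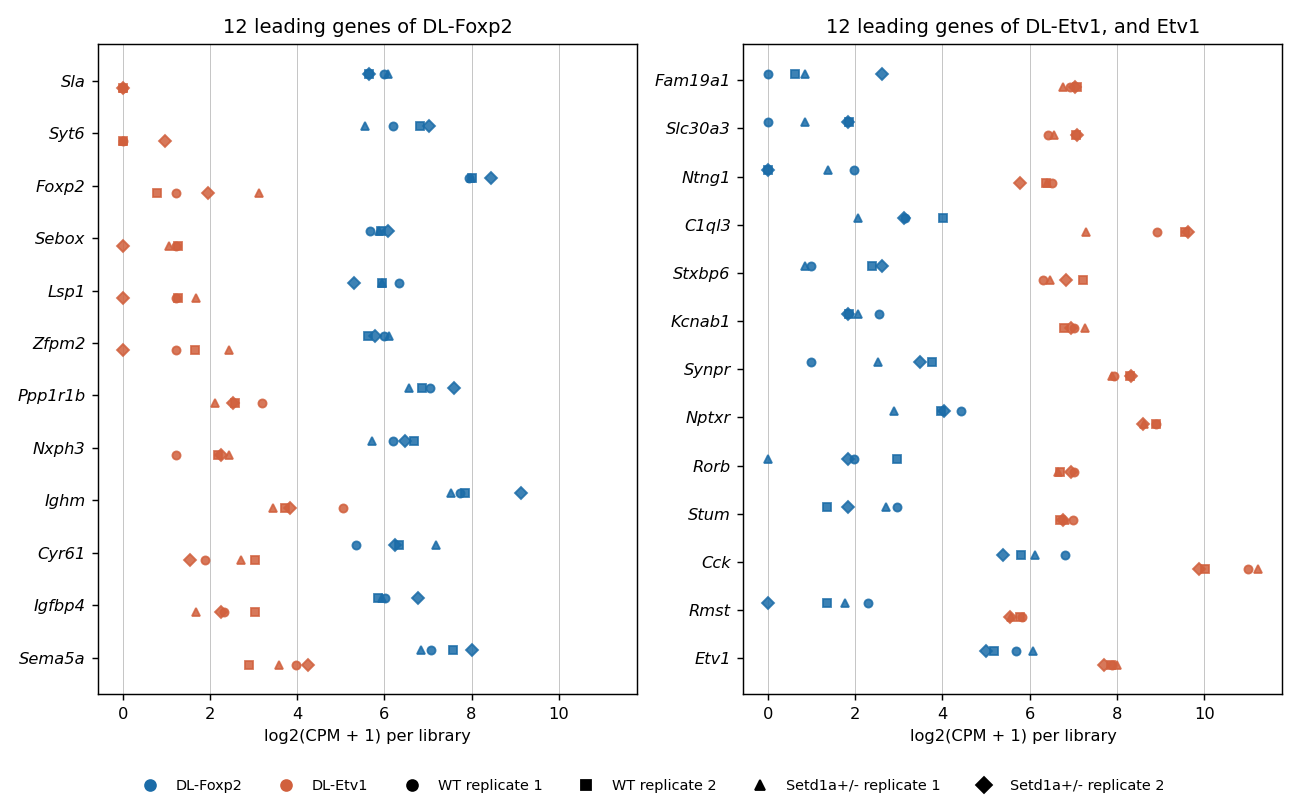
Level, as log2(CPM + 1), of the 12 leading genes in each direction (and of Etv1) in each library. These are the called genes with the largest fold among those above 50 CPM in the higher subtype and with the same direction in every library. Blue points are DL-Foxp2, orange points DL-Etv1, and the symbol gives the library. For each of these 25 genes the 4 libraries of 1 subtype lay apart from the 4 of the other, as for Rorb, with 99.4 to 128 CPM in DL-Etv1 and 0 to 6.82 CPM in DL-Foxp2.

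Most tested intratelencephalic genes were higher in DL-Etv1. Of 18 genes 13 were tested, and 11 were called higher in DL-Etv1 (84.6%, against 8.88% of all tested genes). *Cdh13* alone was called higher in DL-Foxp2 (7.69%, against 6.99%), and the median log2 FC was -2.30. This list holds *Etv1*, which named the subtype, and was also chosen with earlier results known. *Lhx2* and *Il1rapl2* had enough counts only through DL-Etv1. These shares, too, were favored in advance and describe the list without testing it. *Etv1* (ENSMUSG00000004151, chr12:38779380-38870484 (plus strand), GRCm38), an ETS transcription factor gene, was at 236, 233, 254 and 208 CPM in DL-Etv1 and at 50.6, 35.1, 66.7 and 30.8 CPM in DL-Foxp2. The groups did not overlap (log2 FC -2.30 ± 0.12, FDR 4.2e-32), but the gene that named DL-Etv1 separated the subtypes by 4.93-fold, against 92.7-fold for *Foxp2*. *Etv1* was counted in this list but is also known as a marker of layer 5. Among the excitatory subtypes its mean was highest in the deep-layer subtype DL-Tshz2 (1031 CPM), so it does not mark the intratelencephalic class by itself. *Slc30a3*, which loads zinc into synaptic vesicles, was at 85.01, 134, 92.8 and 134 CPM in DL-Etv1 and at 0, 2.62, 0.794 and 2.57 CPM in DL-Foxp2 (log2 FC -6.05 ± 0.28, FDR 1.3e-37; -6.74 without WT replicate 2). *Rorb*, an orphan nuclear receptor gene, was at 128, 103, 99.4 and 123 against 2.92, 6.82, 0 and 2.57 CPM (log2 FC -4.82 ± 0.25, FDR 5.2e-34; -6.11 without WT replicate 2). *Lhx2* and *Il1rapl2* had 3 and 1 UMIs in DL-Foxp2 against 92 and 72 in DL-Etv1, ratios of 34.3 (95% counting interval 11.4 to 169) and 80.5 (14.003 to 3225). *Cdh13* went against the list with 113, 74.4, 55.6 and 23.1 CPM in DL-Foxp2 and 41.8, 34.3, 47.5 and 23.8 CPM in DL-Etv1, groups that overlap (log2 FC 0.89 ± 0.17, FDR 6.7e-06); this call was lost in the *Setd1a*+/- libraries alone and without the block.

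The other projection classes gave few genes to test, too few to set against the 6.99 and 8.88% called over all tested genes. Of the layer 5 extratelencephalic genes 4 of 10 were tested: the zinc finger factor gene *Bcl11b* (200.3, 149, 163 and 234 against 22.9, 22.9, 7.73 and 11.4 CPM, log2 FC 3.47 ± 0.17, FDR 5.3e-36) and *Spon1* (129 against 31.0 CPM) were higher in DL-Foxp2, *Vat1l* (1.10 against 22.1 CPM) was higher in DL-Etv1, and *Ldb2* was not called. *Vat1l* rested on 7 and 89 UMIs, and its log2 FC of -3.75 became -4.76 without WT replicate 2. The extratelencephalic marker *Pou3f1* was near the floor in both, with 1 UMI in DL-Foxp2 and 10 in DL-Etv1. Among near-projecting genes *Lypd1* alone could be tested and was higher in DL-Foxp2 (log2 FC 1.52 ± 0.27, FDR 1.3e-06). Its groups overlapped, and the call was lost in the replicate 2 libraries alone (0.77). Mean *Lypd1* was 27.5 CPM in DL-Foxp2 against 574 CPM in DL-Tshz2. *Spon1* was also higher in DL-Tshz2 (202 to 263 CPM) than in DL-Foxp2 (92.4 to 156 CPM). *Bcl11b* overlapped between DL-Tshz2 (165 to 264 CPM) and DL-Foxp2 (149 to 234 CPM). Among layer 6b genes *Nr4a2* alone could be tested, which was higher in DL-Etv1 (log2 FC -1.69 ± 0.20, FDR 5.7e-12) but fell to -0.25, without a call, when subtypes were assigned again on split UMIs.

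The other leading genes of DL-Etv1 lay outside the projection class list. *Cck*, the precursor of the neuropeptide cholecystokinin, was at 2067, 1035, 2407 and 938 CPM in DL-Etv1 and at 111, 55.0, 68.3 and 41.1 CPM in DL-Foxp2 (log2 FC -4.48 ± 0.10, FDR 1.4e-65). Within each subtype the replicate 1 libraries held more *Cck* than the replicate 2 libraries, yet the subtypes stayed far apart in all. *C1ql3*, a secreted C1q-like synaptic protein gene, was at 480.4, 761, 157 and 786 against 7.78, 15.2, 3.18 and 7.70 CPM (log2 FC -5.75 ± 0.15, FDR 2.9e-59), lowest in both subtypes in *Setd1a*+/- replicate 1. The pentraxin receptor gene *Nptxr* was at 14.2 ± 5.83 CPM in DL-Foxp2 and 434 ± 51.4 CPM in DL-Etv1; it overlaps *Npcd* on the same strand, so its counts are uncertain. *Fam19a1*, a small secreted protein gene, was at 1.61 against 123 CPM (log2 FC -6.92, and -7.67 without *Setd1a*+/- replicate 2, the library with the most in DL-Foxp2), *Synpr*, encoding the vesicle protein synaptoporin, at 7.15 against 277 CPM, and *Stxbp6*, encoding the syntaxin-binding protein amisyn, at 2.77 against 107 CPM. *Synpr* depended on the cell labels: its log2 FC of -5.14 became -5.86 without WT replicate 2 and -2.01 when subtypes were assigned again on split UMIs. The last leaders were *Stum* (4.13 against 112 CPM) and the long noncoding RNA *Rmst* (1.96 against 50.2 CPM).

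Transcription factors split between the subtypes. Of 51 tested factors, 9 were called higher in DL-Foxp2 (17.6%, against 6.99% of all tested genes) and 16 higher in DL-Etv1 (31.4%, against 8.88%), with a median log2 FC of 0.08. Beside those above, the DL-Foxp2 group held *Nfib* (1.498) and *Lmo3* (0.77). The DL-Etv1 group held *Bhlhe22*, a basic helix-loop-helix factor gene with 1 UMI in DL-Foxp2 and 137 in DL-Etv1 (ratio 153, counting interval 27.1 to 6097), *Neurod1* (log2 FC -2.42 ± 0.35, FDR 4.4e-09; it shares its strand with *Cerkl*, so the counts are uncertain), *Rora* (-2.04), *Nr2f1* (-1.65), *Foxp1* (-1.20) and *Mef2c*. *Foxp1* is the paralog of *Foxp2* and went the other way, with 148 against 343 CPM. *Mef2c*, which controls synapse number in cortical neurons, was at 2639.5, 2896, 2304 and 2723 CPM in DL-Etv1 and at 876, 1141, 709 and 858 CPM in DL-Foxp2 (log2 FC -1.53 ± 0.07, FDR 7.3e-39). Another 26 factors were not called, among them *Neurod2*, *Neurod6*, *Satb1* and *Tcf4*.

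Ion channel genes also divided. Of 43 tested potassium and HCN channel genes, 6 were higher in DL-Foxp2 (13.95%, against 6.99% of all tested genes) and 10 in DL-Etv1 (23.3%, against 8.88%). DL-Etv1 had more of the auxiliary subunit gene *Kcnab1* (128, 110.0, 152 and 123 against 4.86, 2.62, 3.18 and 2.57 CPM, log2 FC -5.19 ± 0.23, FDR 7.3e-39) and of the voltage-gated genes *Kcng1* (1.94 against 19.3 CPM), *Kcnb2* (12.5 against 114 CPM) and *Kcnc2* (4.27 against 31.6 CPM). The DL-Foxp2 calls were smaller: the leak channel genes *Kcnk3* (17.7 against 5.67 CPM, log2 FC 1.61 ± 0.33, FDR 4.9e-05) and *Kcnk1* (102 against 44.9 CPM, 1.23), the sodium-activated *Kcnt1* (0.84) and the calcium-activated *Kcnn2* (0.83). The *Kcnk3* groups overlapped and its call was lost without the block. *Kcnt1* lost its call with DESeq2, in the WT libraries alone and in the replicate 2 libraries alone. *Kcnn2* lost its call in 7 alternatives, among them without *Setd1a*+/- replicate 1. Of 23 tested sodium and calcium channel genes, 7 were called (30.4%, against 8.88% of all tested genes), all of them calcium channel or related subunit genes and all higher in DL-Etv1; no sodium channel gene was called. They were led by the subunit gene *Cacna2d3* (1.15 ± 1.06 CPM in DL-Foxp2 and 28.8 ± 3.96 CPM in DL-Etv1), the T-type *Cacna1g* (1.72 against 15.9 CPM), the N-type *Cacna1b* (46.7 against 98.3 CPM) and *Cacng3* (76.6 against 162 CPM), which encodes an AMPA receptor auxiliary subunit. The least FDR-certain of these 4 was *Cacna1g*, on 7 and 64 UMIs (FDR 4.1e-09).

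**Figure D4:**
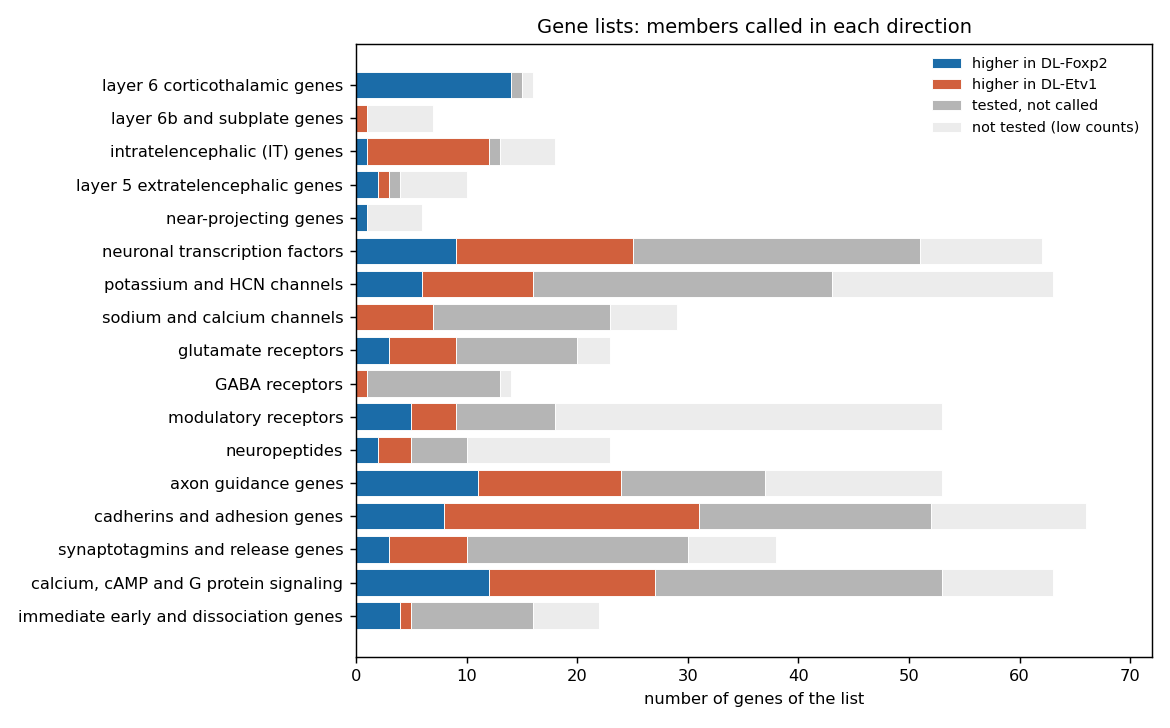
Number of genes of each of the 17 lists that were called higher in DL-Foxp2, called higher in DL-Etv1, tested and not called, or not tested for low counts. All but 2 of the corticothalamic genes lie on the DL-Foxp2 side and 11 of 18 intratelencephalic genes on the DL-Etv1 side. Most functional lists hold calls in both directions. Over all tested genes the shares were 6.99% and 8.88%. The lists were chosen with earlier results of these data known.

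Glutamate receptor genes were called in both directions, 3 higher in DL-Foxp2 (15%, against 6.99% of all tested genes) and 6 in DL-Etv1 (30%, against 8.88%) of 20 tested. The DL-Etv1 side held the metabotropic *Grm2* (3.63 against 28.5 CPM, log2 FC -2.65 ± 0.32, FDR 1.1e-11) and *Grm7* (25.0 against 64.8 CPM), the NMDA receptor subunit gene *Grin3a* (1.63 against 18.0 CPM; it shares its strand with *Ppp3r2*, so the counts are uncertain) and the AMPA receptor subunit gene *Gria4* (32.4 against 78.2 CPM, overlapping groups). On the DL-Foxp2 side, *Grik3* (89.5 against 38.8 CPM) was followed by *Gria3* (400.0 against 259.5 CPM, log2 FC 0.63 ± 0.09, FDR 2e-09) and *Grin1* (0.59), which lost their calls in 3 and 8 alternatives, *Grin1* among others without *Setd1a*+/- replicate 2. Of 13 tested GABA receptor genes 1 was called higher in DL-Etv1 (7.69%, against 8.88% of all tested genes) and none in DL-Foxp2 (against 6.99%). It was *Gabra2*, with 128, 74.3, 81.7 and 74.2 CPM in DL-Etv1 and 61.3, 32.5, 35.7 and 51.4 CPM in DL-Foxp2 (log2 FC -1.02 ± 0.15, FDR 8.3e-09).

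Receptors for modulators were called in both directions as well. Of 18 tested genes 5 were higher in DL-Foxp2 (27.8%, against 6.99% of all tested genes) and 4 in DL-Etv1 (22.2%, against 8.88%). *Cnr1*, the cannabinoid CB1 receptor gene, was at 286, 304, 357 and 306 CPM in DL-Etv1 and at 15.6, 25.7, 17.5 and 7.70 CPM in DL-Foxp2 (log2 FC -3.98 ± 0.14, FDR 4.1e-47). The serotonin receptor genes went opposite ways. *Htr2a* was at 40.5, 54.3, 49.7 and 56.1 CPM in DL-Etv1 against 4.86, 3.15, 2.38 and 0 CPM (log2 FC -3.95 ± 0.30, FDR 2e-22), and *Htr1f* was at 66.1, 64.5, 50.04 and 61.6 CPM in DL-Foxp2 against 9.45, 13.6, 13.3 and 19.98 CPM (log2 FC 2.15 ± 0.20, FDR 2.2e-16). The groups of both genes lay apart. DL-Foxp2 also had more of the somatostatin receptor gene *Sstr1* (13.2 against 4.28 CPM), of the nicotinic subunit gene *Chrna4* (49.1 against 17.3 CPM), of the muscarinic *Chrm3* (34.6 against 11.2 CPM; log2 FC 1.43, and 2.16 without WT replicate 2) and of the adenosine receptor gene *Adora1* (1.13). DL-Etv1 had more of the adrenergic *Adrb1* (3.30 against 14.8 CPM) and of the neuropeptide Y receptor gene *Npy1r* (10.6 against 41.6 CPM, log2 FC -1.90 ± 0.23, FDR 1.4e-11). The dopamine receptor gene *Drd1* was tested and not called (log2 FC 0.42 ± 0.28, FDR 0.29).

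Among 10 tested neuropeptide and granule genes, *Cck*, *Bdnf* and *Adcyap1* were higher in DL-Etv1 (30%, against 8.88% of all tested genes) and *Scg3* and *Chgb* in DL-Foxp2 (20%, against 6.99%). *Bdnf*, the brain-derived neurotrophic factor gene, was at 139, 125, 192 and 121 CPM in DL-Etv1 against 36.0, 22.5, 27.8 and 30.8 CPM (log2 FC -2.33 ± 0.15, FDR 4.8e-27), and *Adcyap1*, which encodes the peptide PACAP, was at 4.67 ± 2.18 CPM in DL-Foxp2 and 39.7 ± 7.28 CPM in DL-Etv1. The granins, which pack peptides into dense-core granules, had the opposite order: *Scg3* was at 333, 246, 205 and 285 CPM in DL-Foxp2 against 75.6, 66.4, 71.8 and 72.3 CPM (log2 FC 1.91 ± 0.11, FDR 1.8e-29) and *Chgb* at 808 ± 112 CPM in DL-Foxp2 and 402 ± 51.3 CPM in DL-Etv1. No library of 1 subtype reached a library of the other for these 5 genes.

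Axon guidance genes, which steer growing axons and stay expressed in adult neurons, were called on both sides. Of 37 tested guidance genes 11 were higher in DL-Foxp2 (29.7%, against 6.99% of all tested genes) and 13 in DL-Etv1 (35.1%, against 8.88%). All 5 called semaphorin genes lay on the DL-Foxp2 side, with *Sema5a* (134, 190.3, 113 and 257 against 14.8, 6.43, 11.04 and 18.1 CPM, log2 FC 3.92 ± 0.18, FDR 6.2e-38), *Sema5b* (15.5 against 1.80 CPM), *Sema3a* (1.22), *Sema4a* (0.96), and *Sema6d* (0.94), and 4 further semaphorin genes tested, *Sema3c*, *Sema3e*, *Sema4d* and *Sema7a*, were not called. Their receptors divided: the coreceptor gene *Nrp1* (93.8 against 16.8 CPM, log2 FC 2.52 ± 0.18, FDR 1.6e-23) and *Plxna2* (1.13) were higher in DL-Foxp2, *Plxna1* (-1.02) and *Plxna4* (-1.17) in DL-Etv1. The netrin-related genes that were called lay on the DL-Etv1 side: the netrin-G1 gene *Ntng1* (90.4, 81.4, 82.8 and 54.2 against 2.92, 0, 1.59 and 0 CPM, log2 FC -6.04 ± 0.32, FDR 1.6e-32), and the netrin receptor genes *Unc5d* (1.06 against 46.6 CPM), *Unc5c* (2.32 against 39.3 CPM) and *Unc5a* (-0.74). The log2 FC of *Ntng1* was -6.83 without WT replicate 1 and -5.34 without WT replicate 2, that of *Unc5d* moved from -5.16 to -5.96 and that of *Unc5c* from -3.88 to -4.50 without WT replicate 1. *Slit1* was higher in DL-Foxp2 (1.08), whereas *Slit2* (-2.61) and the receptor gene *Robo2* (-2.28) were higher in DL-Etv1. The ephrin ligand genes divided too: *Efnb3* was higher in DL-Foxp2 (43.0 against 19.1 CPM, overlapping groups), *Efna5* (7.39 against 51.8 CPM) and *Efnb2* (-1.85) in DL-Etv1.

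Of 52 tested adhesion genes 23 were higher in DL-Etv1 (44.2%, against 8.88% of all tested genes) and 8 in DL-Foxp2 (15.4%, against 6.99%), with a median log2 FC of -0.30. All 4 called contactin genes were on the DL-Etv1 side, from *Cntn5* (-1.82) to *Cntn3* (-3.36, on 8 and 82 UMIs, and -2.64 without WT replicate 2). The contactin-associated genes went both ways, *Cntnap5a* (6.04 ± 2.49 CPM in DL-Foxp2 and 55.96 ± 5.06 CPM in DL-Etv1) and *Cntnap2* (-1.67) higher in DL-Etv1 and *Cntnap4* (63.2, 69.2, 57.2 and 36.0 against 5.40, 18.6, 18.8 and 14.3 CPM, log2 FC 1.98 ± 0.21, FDR 2.1e-14) higher in DL-Foxp2. *Ntm*, the neurotrimin gene, was at 521, 456, 352 and 462 CPM in DL-Etv1 against 72.9, 49.8, 85.8 and 77.0 CPM (log2 FC -2.65 ± 0.11, FDR 8.6e-41). Cadherin genes formed no single direction: *Cdh10* (13.1 against 102 CPM), *Cdh12* (-2.40) and *Cdh8* (-1.90) were higher in DL-Etv1, and *Cdh6* (29.4 against 11.9 CPM), *Cdh18* (18.7 against 7.31 CPM), *Cdh2* (0.88) and *Cdh13* in DL-Foxp2. The calls of *Cdh6* and *Cdh18* were each lost in 1 alternative. The teneurins *Tenm2*, *Tenm3* and *Tenm4* were higher in DL-Etv1 (log2 FC -1.63, -1.10 and -2.49), and *Tenm1* was not called. The neurexophilin gene *Nxph3* had the largest log2 FC toward DL-Foxp2 in the adhesion list but was higher still in another deep-layer subtype, DL-Tshz2; DL-Foxp2 and DL-Etv1 were at 72.9, 102, 51.6 and 87.3 against 1.35, 3.57, 4.42 and 3.81 CPM (log2 FC 4.57 ± 0.26, FDR 4.3e-30).

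Of 30 tested genes of the release machinery, 3 were higher in DL-Foxp2 (10%, against 6.99% of all tested genes) and 7 in DL-Etv1 (23.3%, against 8.88%). The other 20 were not called, among them *Snap25*, *Syt1*, *Vamp2* and *Slc17a7*. Synaptotagmin genes gave 4 of the 10 calls: *Syt6* and *Syt10* (26.0 against 5.73 CPM, overlapping groups) were higher in DL-Foxp2, and *Syt17* (184 UMIs in DL-Etv1 and 3 in DL-Foxp2, ratio 68.6 with a counting interval of 23.1 to 336) and *Syt4* (934, 731, 819 and 629.9 against 219, 249.6, 272 and 157 CPM, log2 FC -1.73 ± 0.09, FDR 3.2e-35) in DL-Etv1. *Cplx2*, encoding a complexin that clamps and promotes fusion, was at 563, 623, 362 and 855 CPM in DL-Foxp2 against 135, 236, 110.4 and 232 CPM (log2 FC 1.76 ± 0.09, FDR 3.8e-34). The active zone gene *Rims3* was higher in DL-Etv1 (13.1 against 39.2 CPM).

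Of 53 tested genes of calcium, cAMP and G protein signaling, 12 were higher in DL-Foxp2 (22.6%, against 6.99% of all tested genes) and 15 in DL-Etv1 (28.3%, against 8.88%). Beside *Ppp1r1b*, DL-Foxp2 had more of *Rgs9* (30.0 ± 8.06 CPM in DL-Foxp2 and 4.69 ± 1.60 CPM in DL-Etv1), which shortens G protein signals and, like *Ppp1r1b*, is best known from the striatum, and of the phospholipase gene *Plcb4* (179, 114, 161 and 121 against 36.4, 30.7, 25.4 and 32.4 CPM, log2 FC 2.20 ± 0.15, FDR 1e-25). *Necab3* was among the genes that split the replicates, with 27.2, 103, 15.1 and 128 CPM in DL-Foxp2 and 6.75, 41.4, 3.31 and 64.7 CPM in DL-Etv1; it was higher in DL-Foxp2 within every library (log2 FC 1.33 ± 0.18, FDR 9e-10), and the call was lost without the block. DL-Etv1 had more of the calcium sensor genes *S100b* (7.83 ± 4.06 CPM in DL-Foxp2 and 109 ± 23.6 CPM in DL-Etv1) and *Hpcal1* (9.50 against 89.8 CPM), of the diacylglycerol kinase gene *Dgkb* (247, 223, 209.8 and 221 against 28.2, 22.0, 24.6 and 51.4 CPM, log2 FC -2.99 ± 0.14, FDR 2.7e-37) and of *Rgs12* (3.23 against 35.6 CPM; log2 FC -3.04, and -1.07 with subtypes assigned again on split UMIs). *S100b* is also an astrocyte and oligodendrocyte gene; the 5 astrocyte markers summed to 27.0 to 80.0 CPM in DL-Etv1 and 46.1 to 70.3 CPM in DL-Foxp2.

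The called genes with the most UMIs included several that differed modestly. *Pcp4*, a calmodulin-binding peptide gene of deep-layer neurons, was at 5642, 7684, 8469 and 7722 CPM in DL-Foxp2 against 2356, 4438, 4014 and 3561 CPM (log2 FC 1.09 ± 0.06, FDR 2.9e-31). *Hsp90ab1*, a chaperone gene, was at 2269 ± 334 CPM in DL-Foxp2 and 1406 ± 255 CPM in DL-Etv1 (0.74). *Tmsb10*, an actin-binding thymosin gene, varied more between replicates than between subtypes: it was at 1541, 5522, 767 and 3472 CPM in DL-Foxp2 and 709.8, 2796, 373 and 2579 CPM in DL-Etv1, so that the groups overlapped although DL-Foxp2 was higher within each library (log2 FC 0.91 ± 0.07, FDR 4.1e-21). The call was lost without the block. On the other side *Camk2n1*, an inhibitor of CaM kinase II, was at 1190.2, 1682, 996 and 1439.7 CPM in DL-Etv1 against 232, 255, 185 and 329 CPM (log2 FC -2.41 ± 0.08, FDR 2.4e-49), and *6330403K07Rik* was at 811 ± 135 CPM in DL-Foxp2 and 1373 ± 330.0 CPM in DL-Etv1 (-0.70). At the fold cutoff itself stood *Slf1* (29.9 against 18.3 CPM, log2 FC 0.59 ± 0.23, FDR 0.048) and *Zfp385b* (28.1 against 45.5 CPM, log2 FC -0.59 ± 0.18, FDR 0.0097), whose groups overlapped and whose calls were lost in 12 and 14 alternatives, *Slf1* without WT replicate 1 or *Setd1a*+/- replicate 2 and *Zfp385b* without WT replicate 2 or *Setd1a*+/- replicate 2.

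Immediate early genes respond to neuronal activity and also to dissociation of the tissue. Of 16 tested, 4 were called higher in DL-Foxp2 (25%, against 6.99% of all tested genes) and 1 in DL-Etv1 (6.25%, against 8.88%), all by less than 2-fold. *Btg2*, *Arc*, *Junb* and *Ier5* were higher in DL-Foxp2, with log2 FC between 0.60 and 0.72, and *Egr3* was higher in DL-Etv1 (log2 FC -0.83 ± 0.13, FDR 3.5e-08); *Fos*, *Egr1*, *Jun* and *Npas4* were not called. *Junb* was at 153, 176, 318 and 267 CPM in DL-Foxp2 and 158, 136, 172 and 115 CPM in DL-Etv1, overlapping groups, and was not higher in DL-Foxp2 in WT replicate 1. The 4 DL-Foxp2 calls were each lost in 6 to 10 alternatives, *Btg2*, *Arc* and *Junb* without *Setd1a*+/- replicate 1 and *Junb* and *Ier5* without *Setd1a*+/- replicate 2.

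Set beside the other excitatory subtypes, the 2 marker genes behaved differently. Mean *Foxp2* was 275 CPM in DL-Foxp2 (libraries 246 to 347), 65.9 in DL-Tshz2 (46.3 to 91.2), 25.0 in DL-Pou3f1 and at most 4.46 in the other 4 subtypes, so it was highest in the subtype it named. Mean *Etv1* was highest in DL-Tshz2, at 1031 CPM (906 to 1146), followed by DL-Pou3f1 at 259 (2 libraries with at least 10 cells), DL-Etv1 at 233 (208 to 254) and DL-Nnat at 115 (73.8 to 164). Both DL-Pou3f1 libraries (258 and 261 CPM) lay just above the highest DL-Etv1 library (254 CPM). The lowest DL-Nnat library overlapped SL-Cux2, and DL-Foxp2, SL-Cux2 and SL-Myh7 overlapped at the bottom, between 15.4 and 75.7 CPM. DL-Etv1 was thus not the subtype with the most *Etv1*. *Tle4* overlapped between DL-Tshz2 (233 to 469 CPM) and DL-Foxp2 (235 to 376 CPM), and *Nxph3* was higher in DL-Tshz2 (111 to 162 CPM) than in DL-Foxp2 (51.6 to 102 CPM). *Sebox* overlapped too, with 35.3 to 72.7 CPM in DL-Tshz2 and 49.6 to 66.8 CPM in DL-Foxp2. *Igfbp4* was higher in DL-Pou3f1 (124 to 126 CPM) than in DL-Foxp2 (57.1 to 108 CPM). Mean *Syt6* reached 7.03 CPM at most outside DL-Foxp2. *Cck* and *C1ql3* overlapped between DL-Etv1, DL-Nnat and both superficial subtypes. *Slc30a3* was at 85.01 to 134 CPM in DL-Etv1, below its 147 to 201 CPM in SL-Cux2, and *Cck* was lowest in DL-Tshz2 (18.6 CPM). Among the leading genes of DL-Etv1, *Rorb*, *Synpr*, *Rmst*, *Ntng1*, *C1ql3* and *Slc30a3* had their highest mean in SL-Cux2. *Rorb* was at 221 to 385 CPM there, against 99.4 to 128 CPM in DL-Etv1. *Fam19a1* and *Stxbp6* had their highest mean in DL-Pou3f1, and *Kcnab1*, *Nptxr*, *Stum* and *Cck* in DL-Etv1.

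**Figure D5:**
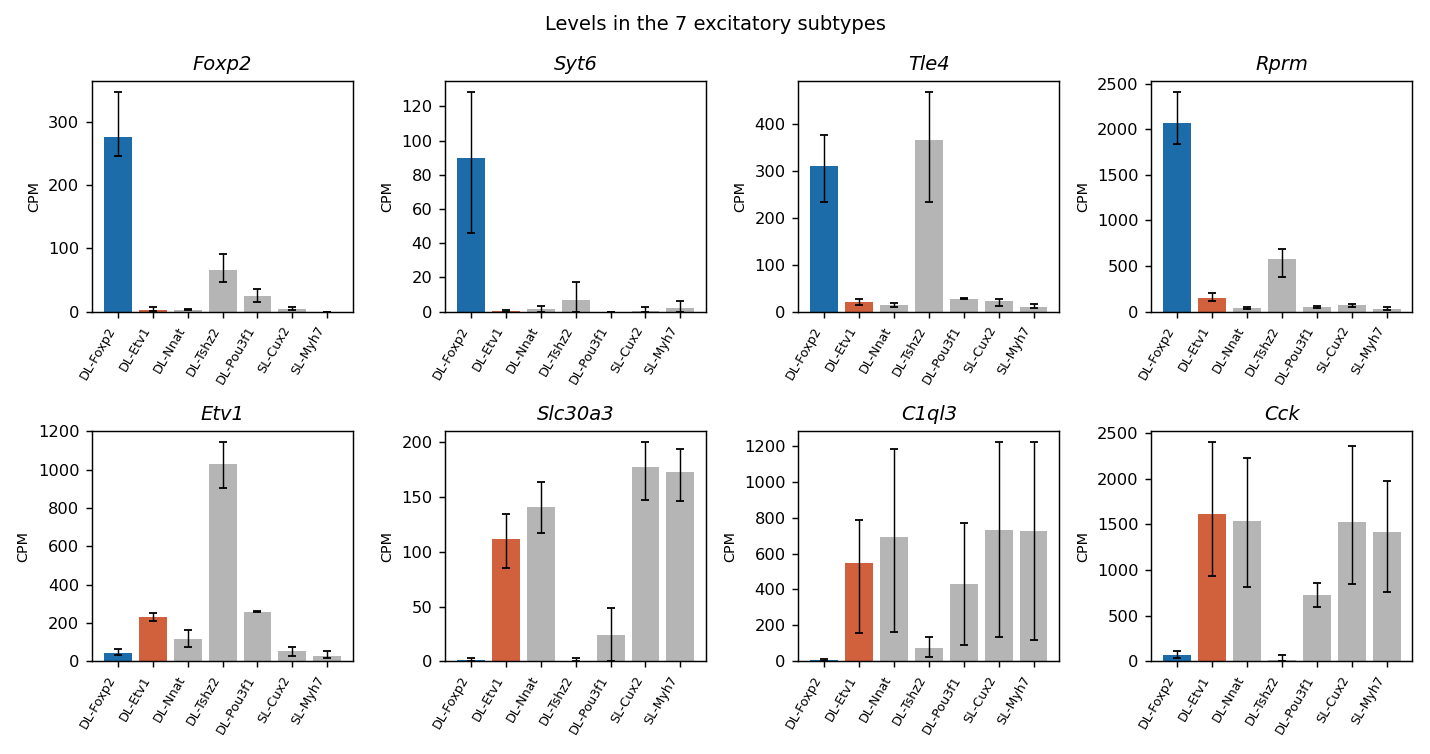
Mean CPM (bars) and range over libraries (whiskers) of 8 identity genes in the 7 excitatory subtypes; DL-Foxp2 is blue, DL-Etv1 orange, and DL-Pou3f1 has 2 libraries. Foxp2, Syt6 and Rprm were highest in DL-Foxp2, Etv1 was highest in DL-Tshz2 (906 to 1146 CPM), and C1ql3 and Cck overlapped between DL-Etv1, DL-Nnat and the superficial subtypes.

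In 1 fit over the 4 large deep-layer subtypes, 461 genes were higher in DL-Foxp2 than in DL-Nnat (5.42% of 8506 tested) and 707 lower (8.31%), and 1077 (12.7%) and 795 (9.35%) in the same order against DL-Tshz2. DL-Etv1 differed from DL-Nnat in far fewer genes, with 104 higher (1.22%) and 125 lower (1.47%), but from DL-Tshz2 in 1483 (17.4%) and 1158 (13.6%). These contrasts share the sums of DL-Foxp2 and DL-Etv1 with the main comparison and with each other, so that they are no independent results. *Foxp2* was higher in DL-Foxp2 than in DL-Nnat by 6.32 and than in DL-Tshz2 by 1.94 on the log2 scale. Among genes of at least 50 CPM in the higher subtype, those that set DL-Etv1 apart from DL-Nnat most were *Rprm* (2.08), the mTOR inhibitor gene *Deptor* (2.06) and *Wfdc18* (1.83) on the higher side, and *Npy* (-4.46) and *Nnat* (-3.24) on the lower side. *Etv1* itself was higher in DL-Etv1 than in DL-Nnat (1.00) and lower than in DL-Tshz2 (-2.18). Across the 8661 tested genes, Pearson's r between the subtypes' mean log2 levels was 0.905 for DL-Foxp2 and DL-Etv1. For DL-Etv1 it was 0.981 with DL-Nnat, 0.966 with the superficial subtype SL-Cux2 and 0.858 with DL-Tshz2. For DL-Foxp2 it was 0.913 with DL-Nnat, 0.880 with SL-Cux2 and 0.884 with DL-Tshz2. All values come from the same libraries, and genes are not independent replicates. Of the other genes that named subtypes, *Cux2* had 3 UMIs in DL-Foxp2 and 71 in DL-Etv1 (ratio 26.5, counting interval 8.70 to 131), *Tshz2* had 35 and 15 and was not tested, and *Myh7* was at 8.04 against 16.7 CPM (log2 FC -0.95 ± 0.31, FDR 0.013), a call lost in 6 alternatives, among them without WT replicate 2 or *Setd1a*+/- replicate 2. *Nnat*, an imprinted gene, was at 119.6, 102, 66.7 and 2.57 CPM in DL-Foxp2 and 14.8, 35.0, 48.6 and 22.8 CPM in DL-Etv1; it was higher in DL-Foxp2 over all (log2 FC 1.30 ± 0.20, FDR 2.1e-08) but lower in *Setd1a*+/- replicate 2, on 1 UMI, and the call was lost in 3 alternatives, the *Setd1a*+/- libraries alone included.

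Cell by cell, the marker genes were seen in part of the cells only. *Foxp2* had a UMI in 69.2% of DL-Foxp2 cells (95% Wilson interval 65.8 to 72.4) and in 2.61% of DL-Etv1 cells (1.42 to 4.74), and in 0.413% of oligodendrocytes, which should lack it; median depths were 6299, 10331 and 2056 UMIs. At 2000 UMIs in every cell, which left out 52, 2 and 759 shallower cells, the shares were 37.3, 0.525 and 0.321%, so that DL-Etv1 was within the counting error of the background. *Etv1* had a UMI in 58.0% of DL-Etv1 cells (53.0 to 62.8) and 17.2% of DL-Foxp2 cells (14.7 to 20.1). Oligodendrocytes could not serve as its background, since 75.2% of them had a UMI and their mean level was 775 CPM; microglia and endothelial cells (median 2037.5 and 2368 UMIs) had a UMI in 8.92 and 9.99%. At 2000 UMIs the *Etv1* shares were 29.1% in DL-Etv1 and 7.53% in DL-Foxp2; microglia and endothelial cells were not thinned. By level, the 30.8 to 66.7 CPM of DL-Foxp2 overlapped those of microglia (24.4 to 86.5) and endothelial cells (30.0 to 62.3) and lay above those of interneurons (19.9 to 25.9). How much of the *Etv1* in DL-Foxp2 is free RNA was not tested. UMIs of both genes were found in 12.5% of DL-Foxp2 and 2.35% of DL-Etv1 cells, and of neither in 26.1 and 41.8%. Other genes marked more of the cells. *Rprm* had a UMI in 96.5% of DL-Foxp2 cells and 44.4% of DL-Etv1 cells, and *Cck* in 98.2% of DL-Etv1 cells and 24.1% of DL-Foxp2 cells, against 2.13 and 3.96% of oligodendrocytes; at 2000 UMIs the shares were 92.0 and 17.3% for *Rprm* and 87.1 and 12.6% for *Cck*. *Slc30a3* had a UMI in 58.5% of DL-Etv1 cells and in 0.942% of DL-Foxp2 cells (0.177% of oligodendrocytes), and *Sla* in 27.6% of DL-Foxp2 cells and 0 of 383 DL-Etv1 cells, which allows a share of up to 0.783% (3 cells of 383; Wilson upper limit 0.993%). This limits the cells with a UMI, not the cells that express the gene, and 16.4% of microglia had a *Sla* UMI as well. These intervals cover counting error only.

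The fold between the subtypes was also compared between genotypes and between replicates. A genotype by subtype interaction was called for 2 of 8661 genes (0.0231%), *Nnat* and the hemoglobin gene *Hbb-bs*, and a replicate by subtype interaction for 2, *Hbb-bs* and *Cul4a*; 417 and 322 genes had an unadjusted p under 0.05, and DESeq2 called none (26 and 10 at an unadjusted p under 0.05). Within the WT libraries alone 595 and 813 genes were called higher in DL-Foxp2 and DL-Etv1, and within the *Setd1a*+/- libraries alone 478 and 628; no called gene was called the other way in either.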

How the data were processed

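Droplet single-cell RNA-seq libraries of the PFC (2 WT and 2 *Setd1a*+/-, each from 2 pooled mice) were used. Per the labels and methods, the authors aligned and counted reads with Cell Ranger 3.0.2 and clustered cells with Seurat 3.2.0; cells with under 800 genes or over 10% mitochondrial reads had been removed. The deposited matrices hold raw UMI counts per gene and cell, not normalized; whether doublets were removed is not stated, and no caller was run here. The genome build of the counts is not given in the sources used here; coordinates are from GENCODE vM21 on GRCm38, where 30934 of 31053 gene IDs were found. The series-wide expression tables and the striatal counts were not used; of the striatal annotation only the number of cells was taken.

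Counts were summed over the cells of each subtype and library with Python 3.11.15, numpy 2.4.6, scipy 1.17.1 and pandas 2.3.3. Genes were filtered with filterByExpr (minimum count 10) and tested in R 4.3.3 with edgeR 4.0.16 (TMM, quasi-likelihood test, library as a block); called genes had a Benjamini-Hochberg FDR under 0.05 and a fold change above 1.5. Both subtypes of a library come from the same mice, and their deviations from the subtype means correlated across genes (r 0.587 to 0.827 within a library). Between the libraries of 1 replicate, which hold different mice, r was 0.273 and 0.304 in replicate 1 and 0.617 and 0.601 in replicate 2. The correlation within a library is thus no mark of shared mice alone. DESeq2 1.42.0, other scalings, filters, blocks, cell subsets, UMI thinning to 2000 per cell and leaving out each library were the alternatives. On simulated counts for 8661 genes of this comparison, with 200 genes changed, 32.5, 84.5 and 98% of changes of 1.5-, 2- and 4-fold were called. Since a call needed a fold above 1.5, the first share was limited by the cutoff itself. The counts were drawn with the dispersion trend over genes in place of each gene's own spread.

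Named were the genes the subtypes are named for and the called genes with the largest fold in each direction. The latter were taken among genes above 50 CPM in the higher subtype and with the same direction in every library. Also named were the called genes of highest level, those nearest the fold cutoff and the leading members of each list. The subtypes and the gene lists were chosen with earlier results of these data known. The p-values of edgeR set the difference within libraries against a spread over the 4 libraries that is moderated across genes. Each library is a separate pool of 2 mice. Intervals cover counting error only.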

Additional observations from a re-analysis of the deposited data

Results flagged for a closer look

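Of 116 sets of 4 library values checked for 1 value far from the other 3, 5 stood out, and chance alone would mark about 1 set in 20. DL-Foxp2 made up 14.3% of excitatory neurons in *Setd1a*+/- replicate 2 and 29.2 to 29.5% in the other libraries. The same library had the smallest DL-Foxp2 sum, and without it 639 and 790 genes were called in place of 605 and 769. The median DL-Etv1 cell of WT replicate 1 had 14540 UMIs and 4453 genes, against 9570 to 10203 UMIs and 3507 to 3598 genes elsewhere. Among the named genes, the log2 ratio of *Rims3* was -0.81 in *Setd1a*+/- replicate 2 and between -1.87 and -1.70 in the other libraries, and that of *Arc* was 0.99 in *Setd1a*+/- replicate 1 and between 0.47 and 0.55 in the others.

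The fold between the subtypes differed with genotype or replicate for 3 genes in edgeR's interaction test, and for none of them in DESeq2. *Nnat*, which is itself a subtype marker, had an interaction with genotype of -1.89 on the log2 scale (FDR 0.00091), with 119.6, 102, 66.7 and 2.57 CPM in DL-Foxp2 and 14.8, 35.0, 48.6 and 22.8 CPM in DL-Etv1. The low value of *Setd1a*+/- replicate 2 rests on 1 UMI. *Hbb-bs*, a hemoglobin gene of red blood cells, had interactions with genotype of 3.39 (FDR 7.0e-15) and with replicate of -2.82 (FDR 5.7e-07), and both come from a single sum. It was at 639 CPM in DL-Foxp2 of *Setd1a*+/- replicate 1 and between 13.6 and 51.3 CPM in the other 7 sums. *Cul4a*, a ubiquitin ligase scaffold gene, had an interaction with replicate of -1.71 (FDR 0.0016): it was at 43.2 and 37.5 CPM in DL-Etv1 of the replicate 1 libraries and at 123 and 154 CPM in those of replicate 2, against 31.5 to 61.6 CPM in DL-Foxp2. What lies behind these values was not tested.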

How the results depend on the processing

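No gene called in the main comparison was called the other way under any alternative. Without a call, the sign turned for 1 called gene in the WT libraries alone and 2 in the *Setd1a*+/- libraries alone. It turned for 1 in the replicate 1 libraries alone and 3 in the replicate 2 libraries alone. It also turned for 1 without *Setd1a*+/- replicate 1 and for 1 without the deepest 5% of cells. The count of genes higher in DL-Foxp2, 605 in the main comparison, was 385 with DESeq2, 389 with no replicate block (the library term left out of the paired fit), 379 with subtypes assigned again on split UMIs, 257 with every cell thinned to 2000 UMIs (3850 genes testable) and 265 at a fold change above 2. The count higher in DL-Etv1, 769, was 242 after thinning and 426 above 2-fold. After thinning, 51.5% of the called genes were higher in DL-Foxp2, against 44.0% in the main comparison. The number of called list members went from 183 to 98, not all of which need be among the 183. Of the 1374 called genes, 521 could still be tested after thinning and 392 of them were called. With genotype and replicate as terms in place of the library the counts were 546 and 701. Leaving out 1 library gave 561 to 639 and 727 to 790 genes. Scaling by library size alone gave 527 and 860, a share of 38.0% higher in DL-Foxp2 against 44.0%. Without a filter on low counts 841 and 988 of 17155 genes were called. Among 1973 values of the named genes over the alternatives, 1876 kept direction and call, 95 lost the call, and 2 reversed, both of the log2 fold change of Setd1a, which was never called: 0.001354 with DESeq2 and 0.29 without WT replicate 2, within a range of -0.36 to 0.29 when 1 library was left out. The genotype and replicate interactions, 2 genes each, were 0 and 0 with DESeq2, whose unadjusted p was under 0.05 for 26 and 10 genes. At 2000 UMIs, the difference in detected genes was -25.4, and the shares of cells with a UMI were 37.3 and 0.525% for *Foxp2* in DL-Foxp2 and DL-Etv1 and 7.53 and 29.1% for *Etv1*. Depth limits the comparison in DL-Foxp2 of *Setd1a*+/- replicate 2, with 69 cells, and for genes under about 10 counts, which were not tested.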

Other observations

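Some further gene groups were defined after the values had been seen and are given as counts with no test; over all tested genes 6.99% were called higher in DL-Foxp2 and 8.88% in DL-Etv1. None of 80 tested cytosolic ribosomal protein genes, 13 mitochondrially encoded genes and 74 nuclear respiratory chain genes was called in either direction by edgeR, on sums scaled for depth. Of 16 tested Wnt pathway genes 5 were higher in DL-Etv1 and none in DL-Foxp2: *Wnt4* (-4.45), *Wls* (-4.41), which carries Wnt proteins to the cell surface, the R-spondin gene *Rspo2* (-1.40), *Wnt7b* (-1.17) and *Znrf3* (-0.93, all log2 FC). Of 12 tested genes of secreted C1q-like, pentraxin, olfactomedin, leucine-rich glioma-inactivated and neuritin proteins, which act at synapses, 6 were higher in DL-Etv1, among them *C1ql3*, *Nptxr*, *Nrn1* (-2.62) and *Lgi3* (-2.14). The other 3 calls of that group were higher in DL-Foxp2, led by the pentraxin gene *Nptx1* (1.60). The insulin-like growth factor genes were divided, with *Igfbp4* (3.93, and 4.52 without WT replicate 2) and *Igf1r* (0.65) higher in DL-Foxp2 and *Igfbp6* (-2.05) and *Irs2* (-1.76) higher in DL-Etv1.

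Genes higher in DL-Etv1 were long. Their median length from start to end in the annotation was 53862 bases, against 31571 bases for genes higher in DL-Foxp2 and 26685 bases for all tested genes. When the tested genes were cut by length into 4 bins of equal size, 16.0% of the longest bin were called higher in DL-Etv1 and 9.43% higher in DL-Foxp2, against 7.07% and 6.51% in the shortest bin. DL-Etv1 cells were also the deeper ones, and the part of this in the lengths was not tested.

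*Etv1* was also high outside neurons. Oligodendrocytes held 675 to 861 CPM of it over the 4 libraries, more than the 208 to 254 CPM of DL-Etv1, and oligodendrocyte progenitors held a mean of 185 CPM.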
